A study of Mus musculus with 24 samples.

Results

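The 10 gastric gland secretory genes described here are Gkn1, Gkn2, Tff1, Muc5ac, Tff2, Atp4a, Atp4b, Gif, Pgc and Chia1. They were chosen by name: each is the row of the deposited count tables whose Ensembl identifier carries that symbol in GENCODE release M21, and together they are 10 of 54532 genes. That choice was made with earlier results of these data known. Their RNA was counted in 24 libraries from stomach, heart, muscle and tongue of mice that all lacked Trex1, the DNA exonuclease whose loss leaves self-DNA to activate the cGAS-STING pathway, so the controls carried the deletion too. In each tissue 3 control libraries, labelled untreated, were set against 3 libraries from mice given SN-011, an antagonist of STING. The labels give SN-011 at 5 mg/kg, 3 times per week for 4 weeks, whereas the study's methods give 10 mg/kg daily for 2 weeks by intraperitoneal injection, with 1% Tween 80 in PBS as vehicle for the controls, in C57BL/6J mice that were 1 month old at the start. These accounts differ, and no label says which applied to these libraries. The knockout is germline and present in every tissue. The samples are whole pieces of tissue, and how much forestomach, gland or muscle wall each stomach piece held is not given in the sources used here.

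The stomach lining is folded into glands, each with cells that make distinct products. Pit cells at the surface secrete a mucous layer: Muc5ac is its main gel-forming mucin, Tff1 is a trefoil peptide stored with it, and Gkn1 and Gkn2 are gastrokines, small secreted proteins of the surface mucosa. Mucous neck cells lie deeper and make the trefoil peptide Tff2. Parietal cells acidify the lumen through the proton pump, whose catalytic subunit is Atp4a and whose beta subunit is Atp4b. Chief cells at the gland base of the mouse secrete Pgc, the precursor of the protease gastricsin, Gif, the intrinsic factor that carries vitamin B12, and Chia1, an acidic chitinase. In mice these glands fill the hind part of the stomach, while the forestomach is lined by keratinised squamous epithelium.

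The members lie on 6 chromosomes (GRCm38, the mm10 assembly). Gkn1 (chr6:87345650-87350942, minus strand) and Gkn2 (chr6:87373357-87379497, plus strand) are neighbours with 22414 bases between them, read away from each other. Tff2 (chr17:31141049-31144282) and Tff1 (chr17:31161395-31165277) both lie on the minus strand with 17112 bases between them, and Pgc (chr17:47726842-47734482, plus strand) is farther along the same chromosome. Muc5ac (chr7:141788972-141819231), Atp4a (chr7:30712209-30725534), Gif (chr19:11747554-11763447) and Chia1 (chr3:106113229-106132120) are on the plus strand, and Atp4b (chr8:13386205-13396825) is on the minus strand. Exons of Tff1 overlap the antisense gene Gm15318, so reads of the pair are kept apart only where counting used strand.

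RefSeq's promoter table (GRCm38.p6) held 6 of the 10 members, with Gif listed as Cblif; Tff1, Tff2, Muc5ac and Atp4b are named only. The 130 bases before the transcription start are printed for the neighbouring gastrokines, whose levels varied together between stomach samples, and for Pgc and Chia1, chief cell genes that were the most abundant member and the one that varied most between stomach samples. They are written 5′ to 3′ on the gene's own strand, and capitals mark TATAAA, the TATA box letters, and GATAA, the core read by GATA factors, on either strand. The windows are chr6:87350916-87351045 (minus strand) for Gkn1, chr6:87373235-87373364 for Gkn2, chr17:47726712-47726841 for Pgc and chr3:106113252-106113381 for Chia1. The transcription starts used are RefSeq's. By the GENCODE positions given above, the Chia1 window lies inside its gene, and the windows of Gkn1 and Gkn2 run into theirs.
Gkn1: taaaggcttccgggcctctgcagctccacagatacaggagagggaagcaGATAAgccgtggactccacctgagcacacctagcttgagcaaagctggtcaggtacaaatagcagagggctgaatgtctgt
Gkn2: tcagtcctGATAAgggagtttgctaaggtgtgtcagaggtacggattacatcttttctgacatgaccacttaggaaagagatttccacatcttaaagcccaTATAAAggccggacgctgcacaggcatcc
Pgc: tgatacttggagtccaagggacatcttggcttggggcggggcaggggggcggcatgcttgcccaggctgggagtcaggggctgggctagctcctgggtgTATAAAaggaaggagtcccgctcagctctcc
Chia1: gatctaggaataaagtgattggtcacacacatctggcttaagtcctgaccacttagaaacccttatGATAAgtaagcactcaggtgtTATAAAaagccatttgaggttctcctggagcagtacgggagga
TATAAA was in 3 of the 6 windows (Gkn2, Pgc and Chia1), against 6.8% of all 32851 windows of this length in the table. GATAA was in Gkn1, Gkn2 and Chia1, against 11.4% of all windows. The windows of Atp4a and Gif held neither run of letters. These are matches of letters, not tests of binding.

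Total counts ran from 14253416 to 18443329 per library, so that 3 counts, the floor used here, correspond to 0.163 to 0.210 CPM, counts scaled to a library total of 1000000. Intervals and floors cover counting error only. Trex1 is listed at 0 in all 24 libraries, but its exons lie within those of Atrip on the same strand, so that row does not check the genotype. One library was sparse: muscle SN-011 replicate 2 detected 11546 genes, while no other library detected fewer than 19798. Nothing in the labels says that a group's 3 libraries came from separate mice, and p-values then measure only the spread between these samples.

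In stomach the members were among the most abundant RNAs: together they took 2.53% to 12.6% of all counts, and Pgc, Gkn2 and Gkn1 ranked 1, 3 and 4 among all genes by mean CPM. Levels per kb of exon over the 6 stomach samples (mean ± SD, n = 6) ran from 25501 ± 16460 CPM per kb for Pgc through 19705 ± 11826 for Gkn2, 12323 ± 9199 for Gkn1 and 7331 ± 5140 for Tff2. The pump subunits Atp4b (739 ± 371) and Atp4a (647 ± 245) followed, with means near each other. Chia1 (310 ± 637), Tff1 (218 ± 134), Muc5ac (142 ± 67.3) and Gif (83.9 ± 66.1) were the lowest. In that order Pgc was above Gkn2 in 3 of 6 samples, Atp4b above Atp4a in 4 of 6 and Chia1 above Tff1 in 2 of 6, so these neighbours did not differ beyond their spread. Tff2 was above Atp4b in 6 of 6 samples, and the other neighbours kept their order in 5 of 6.

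Between SN-011 and control stomach, the pit, neck and parietal members had lower means with SN-011, Gif and Pgc had nearly equal means, and Chia1 was higher in every SN-011 sample than in any control. None of the 10 passed an adjusted p under 0.05 in edgeR's quasi-likelihood test, nor did any of the 17031 genes tested in stomach (0% called; smallest adjusted p = 0.0618), while DESeq2 called 2389 genes (14%), Atp4a among them. At an unadjusted p under 0.05, Atp4b was lower and Chia1 was higher, against 11.4% of genes lower and 13.2% higher. The median log2 fold change of the members was -0.91, with 7 of 10 negative, beside a median of 0.0043 over all genes tested. In a bulk sample, fewer cells of a type and less RNA per cell cannot be told apart.

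Among the pit genes, Gkn1 stood at 47380, 20345 and 9616 CPM (scaled by TMM, edgeR's correction for composition) in control replicates 1 to 3, and at 2404, 13049 and 9891 CPM in SN-011 replicates 1 to 3. Its neighbour Gkn2 stood at 39028, 20389 and 13504 CPM in the controls and at 1233, 16446 and 10676 CPM with SN-011. For both gastrokines control replicate 1 was the highest and SN-011 replicate 1 the lowest, and the groups overlapped for each. The log2 fold change was -1.61 (SE 0.92, adjusted p = 0.312) for Gkn1 and -1.36 (SE 0.98, adjusted p = 0.419) for Gkn2 by edgeR.

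Muc5ac, the surface mucin, stood at 3420, 1757 and 889.6 TMM CPM in the controls and at 427.3, 1871 and 1470 with SN-011. Tff1 stood at 437.4, 114.2 and 126.1 TMM CPM in the controls and at 54.7, 153.3 and 113.9 with SN-011. Both again had control replicate 1 at the top and SN-011 replicate 1 at the bottom, with the other 4 samples mixed. The log2 fold changes were -0.69 (SE 0.67, adjusted p = 0.557) for Muc5ac and -1.07 (SE 0.59, adjusted p = 0.289) for Tff1 by edgeR. Without control replicate 1 the log2 fold change was -0.10 for Muc5ac, -0.19 for Tff1, -0.86 for Gkn2 and -0.85 for Gkn1. Without SN-011 replicate 1 it was -0.27, -0.75, -0.84 and -1.17, and it ran to -2.04 for Gkn2 without SN-011 replicate 2.

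Tff2, the trefoil peptide of neck cells, stood at 11223, 4455 and 2561 TMM CPM in the controls and at 644.9, 7405 and 2005 with SN-011, a log2 fold change of -0.86 (SE 0.92, edgeR adjusted p = 0.595) with overlapping groups. That value turned on single libraries too, at -0.089 without control replicate 1, -0.37 without SN-011 replicate 1 and -2.21 without SN-011 replicate 2. Muc6, the gel-forming mucin that neck cells also make, was higher in every SN-011 sample than in any control, as were 17.8% of all genes tested. It stood at 694 ± 635 TMM CPM in the controls and 2151 ± 242 with SN-011 (SD, n = 3 each). The log2 fold change of Muc6 was 1.63 (SE 0.64, edgeR adjusted p = 0.168). Gkn3, a gastrokine listed with the neck genes, was on the other side at -1.19 (SE 0.78, adjusted p = 0.375), and 2 of the 4 other neck genes were negative. Over the 6 samples the Pearson correlation of log2 CPM of Tff2 was 0.91 with Gkn1, 0.91 with Muc5ac and 0.82 with Pgc, as a description of samples that share their composition.

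After TMM scaling, Atp4a was the one member with a tight control group, whereas its plain CPM in the controls ran from 2389 to 3808. It stood at 3120, 3319 and 3391 TMM CPM in the controls and at 1097, 2309 and 1617 with SN-011, so the groups did not overlap. Its means were 3277 ± 140 and 1675 ± 608 (SD, n = 3 each), a log2 fold change of -0.97 (SE 0.46, unadjusted p = 0.0644, adjusted p = 0.231 by edgeR). Groups did not overlap, in the lower direction, for 15.2% of all genes tested in stomach. DESeq2 gave Atp4a an adjusted p of 0.0259 with a log2 fold change of -0.99.

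Atp4b stood at 1884, 2181 and 848.3 TMM CPM in the controls and at 422.3, 994.9 and 719.3 with SN-011. Control replicate 3 lay below SN-011 replicate 2, so the groups overlapped. The log2 fold change was -1.20 (SE 0.51, unadjusted p = 0.0431, adjusted p = 0.190 by edgeR). The counts of Atp4a per count of Atp4b, which make one pump, were 1.66, 1.52 and 3.998 in the controls and 2.60, 2.32 and 2.25 with SN-011, so control replicate 3 had the most Atp4a for its Atp4b.

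Pgc, the most abundant member, stood at 58446, 28708 and 19165 TMM CPM in the controls and at 15196, 81831 and 21282 with SN-011. Gif stood at 133.8, 173.9 and 87.0 TMM CPM in the controls and at 43.5, 332.0 and 38.6 with SN-011. For both, SN-011 replicate 2 was the highest of all 6 samples and the other SN-011 samples lay near or under the lowest control. The log2 fold change was 0.15 (SE 0.98) for Pgc and 0.07 (SE 0.77) for Gif, and without SN-011 replicate 2 it turned to -0.98 and -1.70 (adjusted p = 0.531 and 0.0778 by edgeR). Without control replicate 3 it was -0.15 and -0.16, so the direction of both genes rests on single libraries.

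Chia1 varied most of all members. It stood at 78.0, 3.49 and 45.8 TMM CPM in the controls and at 206.9, 3213 and 115.8 with SN-011. Every SN-011 sample was above every control, which held for 17.8% of all genes tested in stomach, and control replicate 2 and SN-011 replicate 2 were the extremes. The log2 fold change was 4.80 (SE 1.51, unadjusted p = 0.0122, adjusted p = 0.118 by edgeR), and without SN-011 replicate 2 it was 1.91 (adjusted p = 0.249). The edgeR exact test gave an adjusted p of 0.0151, in a fit that called many genes in stomach, unlike the quasi-likelihood test. DESeq2 returned no adjusted p for Chia1. Counts of Chia1 per 1000 counts of Pgc were 1.33, 0.122 and 2.39 in the controls and 13.6, 39.3 and 5.44 with SN-011, so the SN-011 samples were also the higher ones relative to the other chief cell gene.

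**Figure D1:**
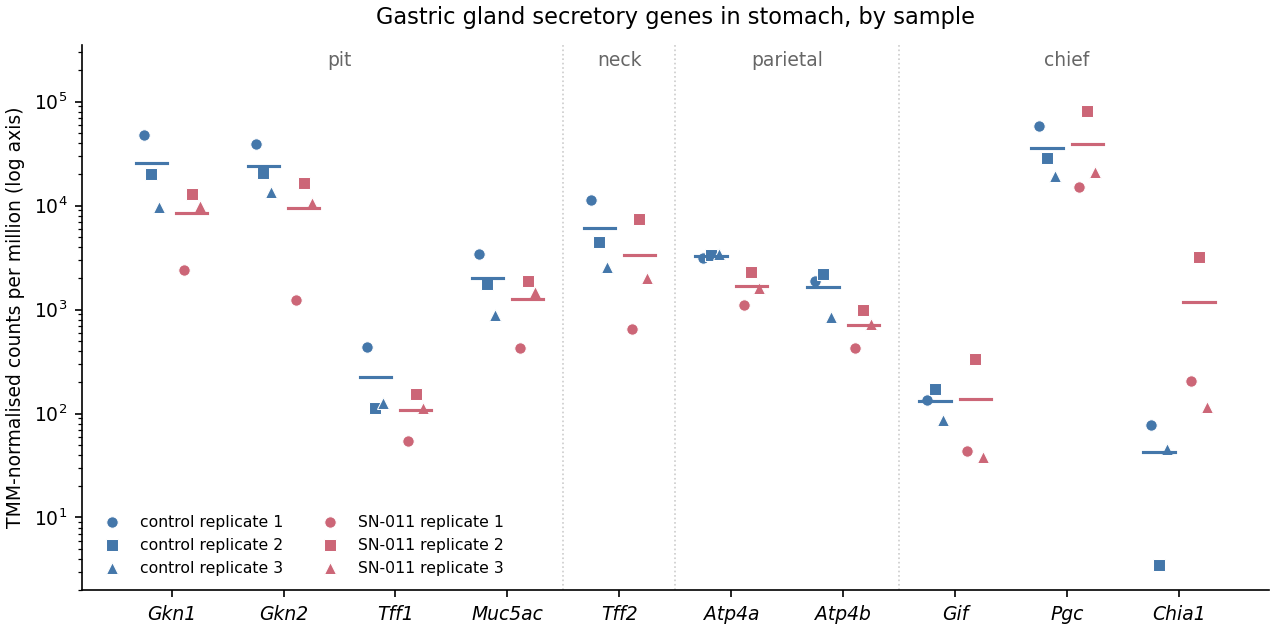
TMM-normalised CPM (log axis) of the 10 genes in the 6 stomach samples, with controls in blue, SN-011 in red, marker shape for the replicate and a line at each group mean. The groups separate for Atp4a and for Chia1, and SN-011 replicate 1 is the lowest sample for the pit members, Tff2, the pump subunits and Pgc.

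The rest of the gland genes were read from lists of cell markers, also chosen with earlier results of these data known. All 11 other pit genes tested had negative log2 fold changes (median -1.54), with 5 lower at an unadjusted p under 0.05, against 11.4% of all genes tested, and 6 with groups that did not overlap in that direction, against 15.2%. The 3 with the lowest p were the tetraspanin Tspan8 (-2.07, SE 0.56), the sulfotransferase Sult1c2 (-1.93, SE 0.65) and the annexin Anxa10 (-1.86, SE 0.64), with edgeR adjusted p of 0.0953, 0.132 and 0.135. All 17 other parietal genes tested were also negative (median -0.86), or 14 of 17 when counts were scaled by library size alone, which moved the median of all genes to 0.18. Of the 17, 8 were lower at an unadjusted p under 0.05, beside the same 11.4%. Among them were the nuclear receptor Esrrg (-1.47, SE 0.34), the chloride channel protein Clic6 (-1.59, SE 0.37) and Hrh2, the histamine receptor through which acid secretion is stimulated (-0.83, SE 0.24), with edgeR adjusted p of 0.0753, 0.0758 and 0.0977. None of the 28 genes passed the adjusted threshold.

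The other 6 chief genes tested were split, with 1 negative and a median of 0.57. Bhlha15, the transcription factor Mist1 of secretory cells, was at 5.25 ± 1.99 TMM CPM in the controls and 16.2 ± 3.28 with SN-011 (log2 fold change 1.63, SE 0.38, edgeR adjusted p = 0.0767). Pga5, the pepsinogen counterpart of Pgc, was at 810 ± 854 and 116 ± 83.3 TMM CPM (log2 fold change -2.80, SE 0.91, adjusted p = 0.123). Tnfrsf19, a receptor of chief cells, was at 6.83 ± 1.70 and 15.2 ± 6.87 TMM CPM (log2 fold change 1.15, SE 0.41, adjusted p = 0.141). Thus Pga5 and Chia1, both secreted enzymes of chief cells, lay in opposite directions. Of 12 gastric transcription factors 9 were negative (median -0.92); Gata6 was the one with the lowest p (-1.12, SE 0.27, adjusted p = 0.0796), while Barx1 was positive (1.76, SE 0.57, adjusted p = 0.123).

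Markers of other tissue layers also differed between the groups in the same libraries, again with no adjusted p under 0.05. All 9 forestomach squamous genes were higher in every SN-011 sample than in any control, as were 17.8% of all genes tested (median log2 fold change 2.22), and their summed level ran from 161 to 321 CPM in the controls and from 666 to 2188 CPM with SN-011. Krt13, Trp63 and Krt5, markers of squamous epithelium, had the lowest p of the 9. Their log2 fold changes were 2.21 (SE 0.39), 2.22 (SE 0.44) and 2.37 (SE 0.52), with edgeR adjusted p of 0.0621, 0.0676 and 0.0731. All 8 smooth muscle genes were positive (median 0.92). Of these, Myh11 at 1.69 (SE 0.65) and Mylk at 1.18 (SE 0.48) were higher at an unadjusted p under 0.05 by edgeR, against 13.2% of all genes tested. The summed level of the 8 genes ran from 1837 to 8047 CPM in the controls and from 7328 to 17677 CPM with SN-011. SN-011 replicate 1, the lowest sample of the pit members, had the highest summed squamous level and the highest summed smooth muscle level. The part of tissue makeup in the members' differences was not tested.

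Beside Chia1 and Pgc, colipase (Clps), listed here as a pancreatic acinar gene, was also far higher in SN-011 replicate 2 (312678 counts) than in the other 5 stomach samples (19070 to 43724 counts). The 10 listed pancreatic genes summed to 19829 CPM in that sample and to between 1248 and 3052 CPM in the others, almost all of it Clps, and Cpa1, a defining acinar enzyme, averaged 1.83 ± 1.15 TMM CPM with SN-011 and 0.215 ± 0.373 in the controls. The part of pancreatic tissue in the Chia1 difference was not tested.

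**Figure D2:**
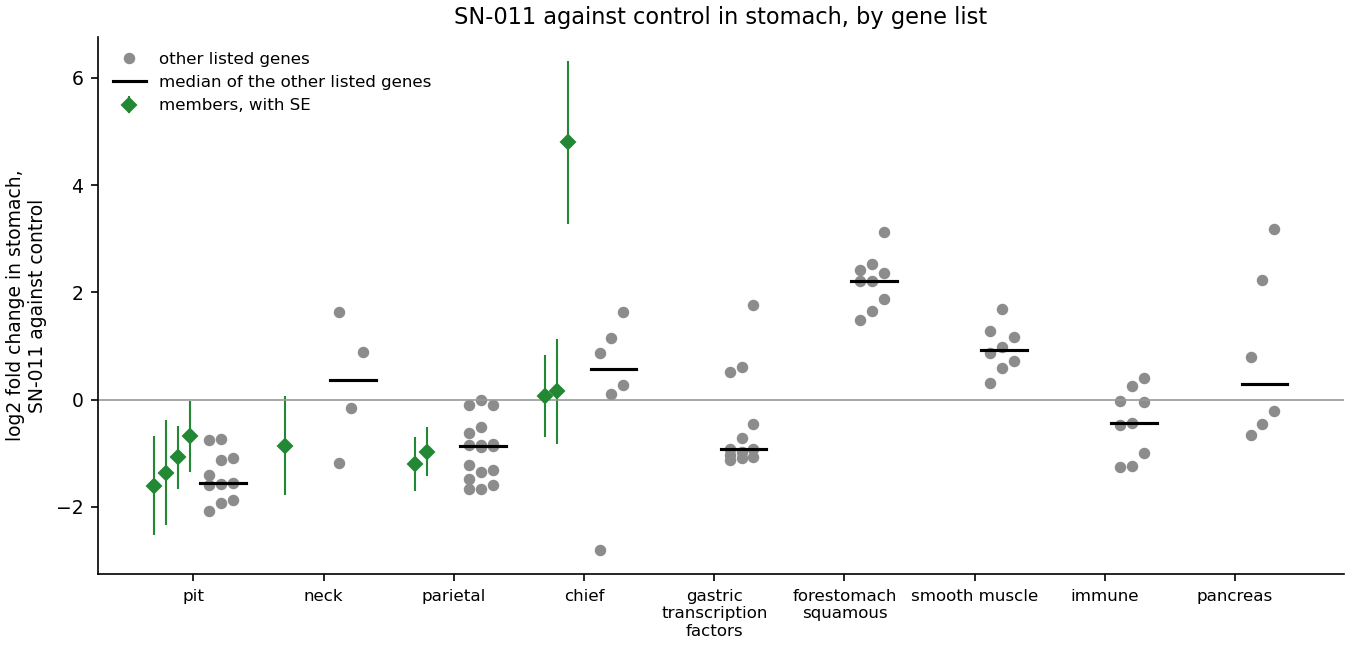
Log2 fold change of SN-011 against control in stomach for the members (green diamonds, bars are SE) and for the other genes of each list (grey points, black line at their median). All pit and parietal genes lie under 0 with TMM scaling (14 of the 17 other parietal genes with library size alone), while all 9 forestomach squamous genes lie over 1 and all 8 smooth muscle genes over 0.

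The genes whose log2 CPM followed the members most closely over the 6 stomach samples were found among 10341 genes with a mean of at least 10 CPM, as a description of samples that differ in makeup. For the mean of the pit members they included Gm3776 (Pearson r = 0.991), Krt20 (0.990), Gsta1 (0.986) and Krt19 (0.986). For the parietal members they were Reps2 (0.997), Cox5a (0.995), Prelid3b (0.995), Fzd5 (0.993) and Lpar2 (0.993), of which Cox5a is a subunit of mitochondrial cytochrome c oxidase. For the chief members Pla2g1b, a secreted phospholipase, came first (0.96), well above Edc3 (0.89), Rpl23 (0.85), Pdia2 (0.84) and Gm9794 (0.84). For the mean of all members they were Arhgdig (0.97), Ndufb4 (0.97), Gstm3 (0.96), Polr2e (0.94) and Pank1 (0.94).

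Against the 18 libraries of heart, muscle and tongue, all 10 members were higher in stomach in 1 fit over the 24 libraries. That fit treated all libraries as independent, although those of different tissues may come from the same mice. The log2 difference ran from 7.73 (Atp4b, SE 0.79) to 8.89 (Gkn2, SE 0.84), with edgeR adjusted p between 7.0e-13 and 3.8e-07, in a comparison where 31.7% of 19731 genes were called higher in stomach. For 9 members the lowest stomach library was above the highest library of any other tissue, by 2.30 times for Gkn2 and by 15.9 times for Tff1; 6.95% of all genes tested were separated in this way. Chia1 was the exception, since stomach control replicate 2 (3.31 CPM) lay under tongue control replicate 3 (6.54 CPM). The separation was wider without 6 libraries: with control replicates 2 and 3 of the other tissues left out, the log2 difference was 10.6 for Gkn1, 11.3 for Gkn2 and 11.5 for Pgc.

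Those 6 libraries carried most of the members' RNA outside the stomach. Summed over the 10 genes, tongue stood at 54.6, 3079 and 2389 CPM in control replicates 1 to 3 and at 22.8, 15.4 and 50.2 CPM in SN-011 replicates 1 to 3. Heart stood at 28.1, 3011 and 334.9 CPM in the controls and at 6.17, 11.6 and 50.2 CPM with SN-011. Muscle stood at 49.0, 802.2 and 344.9 CPM in the controls and at 38.2, 18.3 and 36.9 CPM with SN-011. In all 3 tissues control replicates 2 and 3 were high, and control replicate 1 lay close to the SN-011 libraries. The lower of the high controls was above the highest of the other 4 libraries by 43.7 times in tongue, 6.67 times in heart and 7.05 times in muscle.

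**Figure D3:**
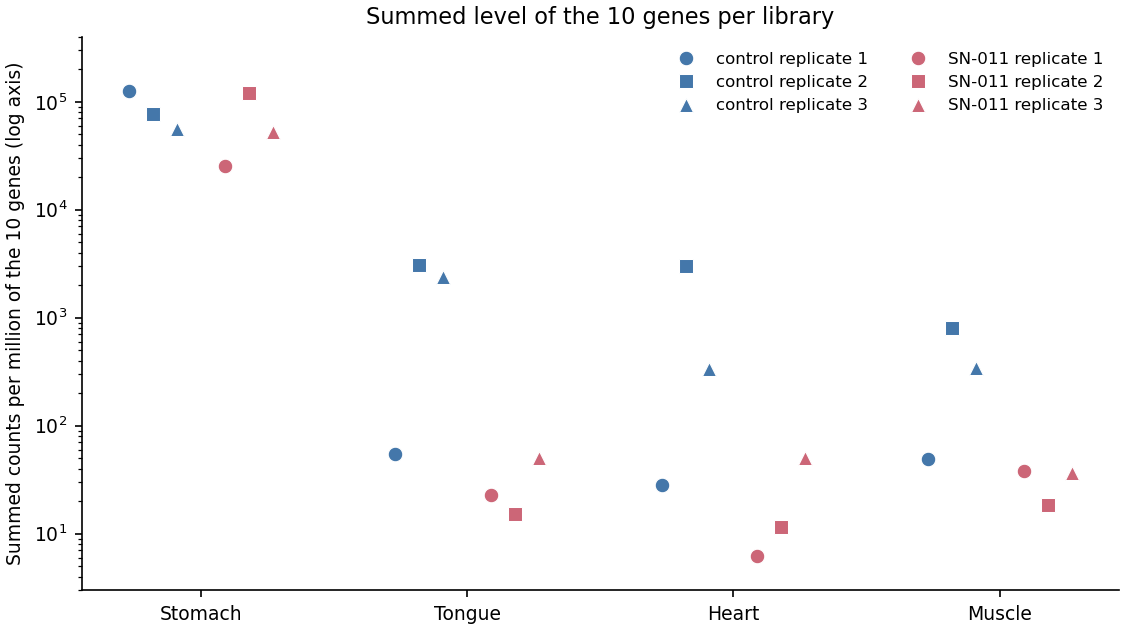
Summed CPM of the 10 genes (log axis) in each library, by tissue, with controls in blue, SN-011 in red and marker shape for the replicate. Control replicates 2 and 3 stand above the other libraries in tongue, heart and muscle, at 334.9 to 3079 CPM, whereas the 6 stomach libraries lie between 25317 and 126465 CPM.

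The same split ran through the classes of members. Pgc had 94, 23911 and 15688 counts in the tongue controls and 210, 60 and 407 with SN-011, and 237, 26059 and 3264 counts in the heart controls and 50, 49 and 209 with SN-011. Gkn1 had 252, 7917 and 9181 counts in the tongue controls and 55, 74 and 119 with SN-011, and Atp4a had 15, 3991 and 1274 counts in the tongue controls and 23, 2 and 31 with SN-011. So the products of chief, pit and parietal cells were high in one and the same pair of libraries. In muscle Gkn1 had 309, 2796 and 1699 counts in the controls and 73, 0 and 126 with SN-011. Gif, the least abundant member per kb in stomach, reached 254 counts in tongue control replicate 2 and 236 in heart control replicate 2, and had at most 2 counts in any of the 9 SN-011 libraries outside the stomach.

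For the pit members and Tff2 in tongue, control replicate 1 was also above every SN-011 library, which held in the lower direction for 8.38% of all genes tested there. In muscle the same held for Gkn1, Gkn2 and Muc5ac, and for 2806 of 14198 genes tested. In heart it held for Atp4b, and for 2114 of 16151 genes tested. Muc5ac had 283, 925 and 1909 counts in the tongue controls and 10, 19 and 44 with SN-011. Tff1 had 32, 48 and 69 in the controls and 2, 8 and 14 with SN-011. Gkn2 and Tff2 had 182 and 66 counts in control replicate 1, against at most 88 and 37 with SN-011. Chia1 did not follow the other members. It had 3, 1 and 113 counts in the tongue controls and 9, 1 and 15 with SN-011, 2, 0 and 15 in the heart controls and 1, 0 and 1 with SN-011, and 7, 30 and 21 in the muscle controls and 7, 57 and 17 with SN-011. Thus tongue and heart control replicate 2, the libraries with the most Pgc outside the stomach, held 1 and 0 counts of Chia1.

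Set as a percentage of the mean CPM of the 3 stomach controls, the members did not appear outside the stomach in one common proportion. In heart control replicate 2 they ran from 0.642% for Tff1 to 13.5% for Gif, with Gkn1 at 1.55%, Pgc at 5.81% and Atp4a at 8.44%, and Chia1 at 0. In tongue control replicate 2 they ran from 1.53% for Tff1 to 13.0% for Gif, again leaving out Chia1 (0.163%). Chia1 was also low in the stomach control of the same number, at 56 counts in stomach control replicate 2, although the numbers do not establish that the libraries came from one mouse. As a percentage of that library, Chia1 in tongue control replicate 2 was at 1.88%, on 1 count, and the other members ran from 2.55% to 9.57%. In tongue control replicate 3 the range was narrower apart from Chia1 (17.1%), from 1.54% for Tff2 to 6.28% for Muc5ac. Parietal and chief products other than Chia1 were thus above the pit products in control replicate 2 of heart and of tongue, but not in tongue control replicate 3. In muscle control replicate 2 the pump subunits and Gif were above the pit products, but Pgc (1.02%) lay under Muc5ac (1.42%). The number of Pgc counts per Gkn1 count was 1.23, 1.41 and 1.99 in the stomach controls, 5.26 and 4.17 in heart control replicates 2 and 3, 3.02 and 1.71 in those of tongue, and 1.87 and 1.36 in those of muscle.

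Other gland genes were higher in the same libraries. The 11 other pit genes summed to 558 and 434 CPM in tongue control replicates 2 and 3 against 37.95 in control replicate 1, and to 452 CPM in heart control replicate 2 against 8.62 in control replicate 1. Muc6 reached 2804 counts in heart control replicate 2, which is 29.9% of its stomach control mean, and Pga5 reached 11.3% of its own. Those means rest on uneven stomach controls: replicates 1 to 3 stood at 289.5, 1351 and 313.1 CPM for Muc6 and at 220.6, 1703 and 389.7 CPM for Pga5. Actg2, the smooth muscle actin of the gut, had 19 counts in heart control replicate 2 (0.164% of the stomach control mean), and Krt5 had 0 counts in all heart and muscle libraries. Tongue has a squamous epithelium of its own. The 9 squamous genes summed there to 41330 and 59970 CPM in control replicates 2 and 3. They summed to 13557 CPM in control replicate 1 and to 17678 to 25883 CPM with SN-011. Their sum was thus higher in the same pair of libraries as the members, but not every gene followed. Krt5 stood at 3619, 2850 and 3604 CPM in the tongue controls and at 5305, 4404 and 4775 CPM with SN-011. Of the 9 genes, 8 had negative log2 fold changes in tongue. The part of squamous tissue in the tongue difference was not tested. Of muscle genes in stomach, Myh4, a myosin of fast skeletal muscle, had 671139 to 856029 counts in muscle and 0 in all 6 stomach libraries, and Myh6, the cardiac myosin, had at most 35 counts in stomach. Acta1, the actin of skeletal muscle, had 3164, 38 and 35 counts in the stomach controls and 1610, 1411 and 832 with SN-011. The 8 striated muscle genes summed to 278.8, 12.2 and 14.3 CPM in the stomach controls and to 307.2, 158.3 and 161.6 CPM with SN-011.

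**Figure D4:**
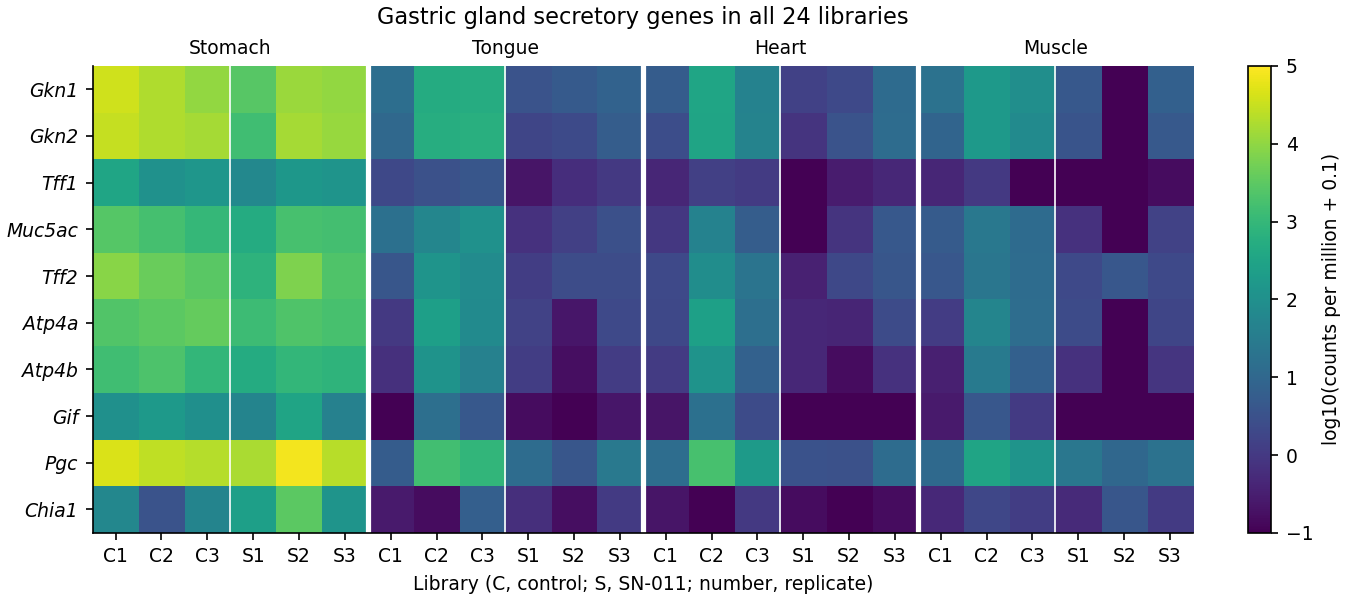
Level of the 10 genes in all 24 libraries as log10(CPM + 0.1), with tissues side by side, C for control, S for SN-011 and the number for the replicate. C2 and C3 are brighter than the other columns in tongue, heart and muscle for most genes, and Chia1 departs from that pattern.

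The treatment comparison outside the stomach rested on these libraries. In tongue, 8 members had enough counts to be tested and their log2 fold changes ran from -7.06 (Gkn2, SE 1.47) to -2.60 (Tff1, SE 0.66), with no adjusted p under 0.05 by edgeR (smallest 0.263; 0% of genes called). In heart, 7 were tested, from -6.78 (Atp4b, SE 1.76) to -3.29 (Muc5ac, SE 1.39), with a smallest adjusted p of 0.0790 for Pgc, where 0.848% of genes were called. In muscle, 8 were tested, from -4.80 (Gkn2, SE 1.39) to 0.95 (Chia1, SE 1.07), with a smallest adjusted p of 0.216 for Muc5ac, where 0.0141% were called. A member entered these tests through the controls in which it was high, so the number on one side is no support for a difference. At an unadjusted p under 0.05, 8 members were lower in tongue, 7 in heart and 7 in muscle, against 7.33%, 11.6% and 5.8% of genes, and DESeq2 called 8, 4 and 3 at an adjusted p under 0.05, against 2.68%, 8.96% and 9.26% of genes.

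The calls turned on single libraries. Without tongue control replicate 1 all 8 members tested passed an adjusted p under 0.05, with 9 called in all because the filter admitted a further member, and 12.5% of all genes were called in that fit. Without heart control replicate 1, 4 passed (Tff2, Atp4a, Atp4b and Pgc), beside 1.1% of genes, and without the sparse muscle SN-011 replicate 2, 1 passed (Muc5ac), beside 7.4% of genes. Leaving out control replicates 2 and 3 together, with the remaining control assumed to vary like the SN-011 group, gave Gkn1 -1.47 in tongue, 0.067 in heart and -2.04 in muscle, and gave Pgc 1.38, -0.96 and 0.91. Under that setting no member passed in heart or muscle, where 1.61% and 0% of genes were called, and Muc5ac passed in tongue (-3.40, SE 0.56, adjusted p = 0.0328; 0.808% of genes called). How gastric RNA came to differ between control libraries was not tested, and the labels name no batch for them.

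The SN-011 log2 fold change in stomach minus that in each other tissue was tested for the 10 members against 3 tissues in the fit of all 24 libraries, a test chosen after the data were seen. None of the 30 differences passed an adjusted p under 0.05; the smallest was 0.0906, for Chia1 in stomach against tongue (6.97, SE 1.99), while 0.821% of genes passed against tongue, 2.01% against heart and 6.95% against muscle. Pgc, with nearly equal means in stomach and a negative fold change in heart, gave a difference of 6.76 (SE 2.13, adjusted p = 0.103).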

How the data were processed

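PolyA RNA of 24 tissue samples was sequenced in paired reads. The deposited files hold raw counts per Ensembl gene, made by the authors. The labels' processing notes name HISAT2, HTSeq and mm10; the study's methods name Trimmomatic, hisat2 and featureCounts on uniquely mapped pairs with strand-specific libraries, so which counter and strand setting made these tables is not settled. Reads shared by overlapping or near-identical genes can be lost or split by either. Symbols, positions and exon lengths came from GENCODE M21 (54495 of 54532 identifiers matched); Gif was matched to RefSeq's Cblif by synonym.

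Counts were tested with edgeR 4.0.16 (R 4.3.3): genes kept by filterByExpr (minimum count 10, minimum total 15), TMM scaling, the quasi-likelihood test for SN-011 against control within each tissue (3 against 3), 1 fit of all 24 libraries for stomach against the other tissues, and Benjamini-Hochberg adjustment over all genes tested (threshold 0.05). Levels outside these fits are CPM (counts scaled to a total of 1000000). Alternatives were DESeq2 1.42.0, other scalings and filters, a replicate block and leaving out libraries. The script recovered large known changes in simulated counts, whose spread was set lower than that of the members in stomach. That checks the code, not how small a change these libraries could show. No replicate pair of the 24 within groups was identical, and each differed by more than sampling noise (chi-square per degree of freedom at least 6.02). Tables used pandas 2.3.3 and numpy 2.4.6, and figures matplotlib 3.10.9.

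The members and the 15 marker lists were chosen with earlier results of these data known. All members are named in stomach, and elsewhere where a library had at least 3 counts; of each list up to 3 other genes with the lowest p in stomach, and 5 genes most like the members, of which 1 is not reported here. Clps, Pga5, Muc6, Actg2, Krt5, Myh4 and Myh6 outside stomach were chosen after their values were seen.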

Additional observations from a re-analysis of the deposited data

How the results depend on the processing

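In stomach, where no gene passed an adjusted p under 0.05, other settings called more: 1368 genes with no filter, 2389 with DESeq2, 126 with at least 10 counts in every sample, 1835 with the edgeR exact test, 2738 in the fit of all 24 samples, and 0 to 64 when 1 replicate was left out. Of the members 1 passed with no filter, in the exact test and in the fit of all samples (Chia1 each time), and 1 with DESeq2 (Atp4a). These fits called many other genes too: 14% of those tested with DESeq2, 1835 of 17031 in the exact test and 2738 of 19731 in the fit of all samples. Heart gave 137 genes, and 1888 with no filter, 1361 with DESeq2 and 1 to 787 with 1 replicate left out; members past the threshold were 8, 4 and 0 to 4. Muscle gave 2 genes, and 110, 880 and 0 to 1103; members were 3 with DESeq2 and 0 to 1 with 1 replicate left out. Tongue gave 0 genes, and 18, 418 and 0 to 2135, with members at 1, 8 and 0 to 9. The DESeq2 calls were 8.96% of genes tested in heart, 9.26% in muscle and 2.68% in tongue. With control replicates 2 and 3 left out, chosen after seeing the data, heart gave 279 genes, muscle 0 and tongue 146, with 1 member in tongue, and the direction turned for Gkn1 (0.067), Gkn2 (1.36), Muc5ac (1.16) and Tff2 (0.17) in heart, for Atp4a (0.46), Atp4b (1.17) and Pgc (0.91) in muscle, and for Atp4a (0.43), Atp4b (0.33) and Pgc (1.38) in tongue. Chia1 in muscle ran from -0.53 (without SN-011 replicate 2) to 1.47 with 1 replicate left out. Gif and Pgc in stomach turned to -0.16 and -0.15 without control replicate 3, and to -1.70 and -0.98 without SN-011 replicate 2, and reached 0.51 and 0.70 at most with 1 replicate left out. The cause of these shifts was not tested. All 10 members passed in stomach against the other tissues under each setting run.

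Within a tissue, control and SN-011 samples with the same replicate number did not deviate together, so the numbers were not taken as pairs. Correlations of their deviations ran from -0.076 to 0.292 in stomach and from -0.467 to -0.047 in tongue. This check cannot show whether a mouse gave several tissues, and the fits of all 24 libraries treated tissues as separate. With the replicate block, stomach gave 181 genes, heart 242 with 1 member (Tff2), muscle 0 and tongue 0, and the stomach fold changes of Gif and Pgc turned to -0.65 and -0.065. With 3 libraries a group, and stomach samples that spread 2.98-fold for Atp4a and 923-fold for Chia1, depth is not what limits precision for the members in stomach.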

Other observations

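The muscle SN-011 replicate 2 library held 0 counts of Gkn1, Gkn2, Tff1, Muc5ac, Atp4a, Atp4b and Gif. It held 60 counts of Tff2, 144 counts of Pgc and 57 counts of Chia1, which is 395.8 counts of Chia1 per 1000 of Pgc. Of other gland genes its counts were 0 for Ctse and 1 for Psca, but 50 for Cldn18 and 22 for Muc6. It detected 9 of the 10 listed pancreatic genes, with a median over the list of 14.2 CPM, against at most 0.275 CPM in any other library outside the stomach. Its counts were 1328 for Clps, 225 for Cela2a and 134 for Cela3b, and no muscle control had a count of Cela2a or Cela3b. That library also had counts on 11546 genes, the fewest of the 24. In the stomach samples Chia1 ran from 0.122 to 39.3 counts per 1000 of Pgc.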
